A study of Mus musculus with 4 samples.

Results

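Oxidative phosphorylation subunits are the nucleus-encoded proteins that build complexes I to V of the mitochondrial inner membrane, and their genes were followed here across 4 populations of mouse intestinal tumour cells. Members were chosen by symbol: Ndufa, Ndufb, Ndufc, Ndufs or Ndufv with a digit, Uqcr, Cox4 to Cox8, Atp5, and Sdha to Sdhd. Of 87 protein-coding genes of these names in the RefSeq table, 83 had a named probe, among 22911 genes named on the array, and 37 of them belong to complex I, 4 to complex II, 8 to complex III, 17 to complex IV and 17 to complex V. Cox5b, Ndufb1, Ndufb4b and Ndufb4c were not analysed here, nor were 18 pseudogenes of the same names, none of which had a named probe. In all, 80 members were well above background on all 4 arrays. Cox8b was above background on the 2 Lgr5+ arrays alone, and Cox7b2 and Cox8c, which in mammals are isoforms of the testis, were above background on no array.

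All cells came from intestinal tumours. The mice were of 1 genotype, Lgr5CreERT2/+; Ctnnb1lox(ex3)/ox(ex3). Cells were collected 14 days after they had been given tamoxifen, and all had passed a gate for EpCAM, a surface protein of epithelial cells. In such mice the Cre recombinase is made in Lgr5-expressing cells, Lgr5 being a receptor of intestinal stem cells, and removal of the loxP-flanked exon leaves a beta-catenin that is not degraded. The gated cells were divided into Lgr5+tuft marker+ and Lgr5+tuft marker-, and into Lgr5-tuft marker+ and Lgr5-tuft marker-, populations, the tuft marker being IL17RB, a receptor subunit found on tuft cells, the chemosensory cells of the gut lining. There was no untreated or normal epithelium among them, and the Lgr5 locus carries the Cre in every group. The age of the mice, the number of animals pooled for a sort, the part of the intestine and the share of sorted cells that had recombined are not given in the sources used here.

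RNA of each population (13 ng) was labelled and hybridised to 1 Agilent array with 1 dye, so there were no replicates, no difference was tested, and the number of arrays limits the precision. A level is the log2 of a probe's processed intensity relative to the 75th percentile of its array, so that 0 is the 75th percentile. The error of a log2 difference is the one given by the scanner software for the spots. It was 0.20 for the members at the median in every pair of arrays, it covers the reading of the spots, and it leaves out the spread between animals, sorts and labelling reactions. Each member is represented by its brightest probe, and its difference between 2 arrays is compared with those of all genes measured in the pair. The share of spots well above background was 60.1% in Lgr5+tuft marker+ and 68.8% in Lgr5+tuft marker- cells, and 68.9% in Lgr5-tuft marker+ and 64.3% in Lgr5-tuft marker- cells. Of the sort genes, Il17rb and Lgr5 followed the labels. Il17rb was higher with the tuft marker by 2.75 within Lgr5+ and by at least 3.83 within Lgr5-. Lgr5 was higher in its sort by at least 2.88 within tuft marker+ and by 2.39 within tuft marker-. Epcam, the gene of the shared gate, was above background in every population. It was at least 2-fold lower in Lgr5-tuft marker+ than in Lgr5-tuft marker- cells.

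Complex I takes electrons from NADH and complex II takes them from succinate, both pass them to ubiquinone, complex III hands them to cytochrome c, and complex IV gives them to oxygen. Complexes I, III and IV pump protons as they do so, and complex V, the ATP synthase, uses the returning protons to make ATP. All but complex II also hold subunits encoded in mitochondrial DNA, and none of those was named on this array. In the intestine, stem cells and absorptive cells are known to depend on mitochondrial respiration, and the genes of the 5 complexes are transcribed under shared regulators such as NRF1, GABP and PGC-1alpha.

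The subunit genes moved as a block that set the 2 Lgr5- populations apart from each other. Within Lgr5- cells, 77 of 80 measured members were lower with the tuft marker than without it (46.8% of all genes were), 3 were higher (53.2% of all genes), and the median log2 difference was -0.89, while the median of all 17911 genes measured in that pair was 0.08. In 75 of the 77 the difference was larger than its scanner error. The members at least 2-fold lower numbered 28 of 80 (35%), against 12.3% of all genes measured, and 2 were at least 2-fold higher, against 16.6% of all genes. Within Lgr5+ cells the median difference was 0.15, with 52 of 81 members higher (50.2% of all genes) and 29 lower (49.8% of all genes) with the tuft marker. There 1 member was at least 2-fold lower, against 8.23% of all genes, and none was 2-fold higher, against 10.5% of all genes.

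Seen along the Lgr5 sort, the members went in opposite directions in the 2 tuft marker classes. Within tuft marker+ cells 75 of 81 members were higher in the Lgr5+ population (47.7% of all genes) and 6 lower (52.3%), with a median of 0.56 beside -0.04 over all genes. Of the 81, 4 were at least 2-fold higher, against 8.97% of all genes, and 1 was 2-fold lower, against 11.5%. Within tuft marker- cells 76 of 81 were lower in the Lgr5+ population (49.7% of all genes) and 5 higher (50.3%), with a median of -0.41 beside 0.01 over all genes, and no member reached 2-fold either way, against 5.31% of all genes lower and 6.62% higher. Each array enters 1 tuft marker pair and 1 Lgr5 pair, so the 4 sets of differences are not independent of one another.

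Put in order over the 4 populations, 60 of the 80 members above background on all arrays (75%) were highest in Lgr5-tuft marker- cells and lowest in Lgr5-tuft marker+ cells, an order found in 17.2% of the 14055 genes above background on all arrays. The highest level lay in Lgr5-tuft marker- cells for 67 members (27.8% of all genes), and the lowest in Lgr5-tuft marker+ cells for 69 members (34% of all genes). Relative to each gene's own mean over the arrays, the median member stood at 0.09 in Lgr5+tuft marker+ cells and -0.03 in Lgr5+tuft marker- cells, and at -0.45 in Lgr5-tuft marker+ cells and 0.43 in Lgr5-tuft marker- cells. The 2 Lgr5+ populations thus lay between the 2 Lgr5- populations. In 73 of the 80 members the Lgr5 difference was above 0 within tuft marker+ cells and below 0 within tuft marker- cells, a pattern seen in 35.9% of all genes.

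**Figure D1:**
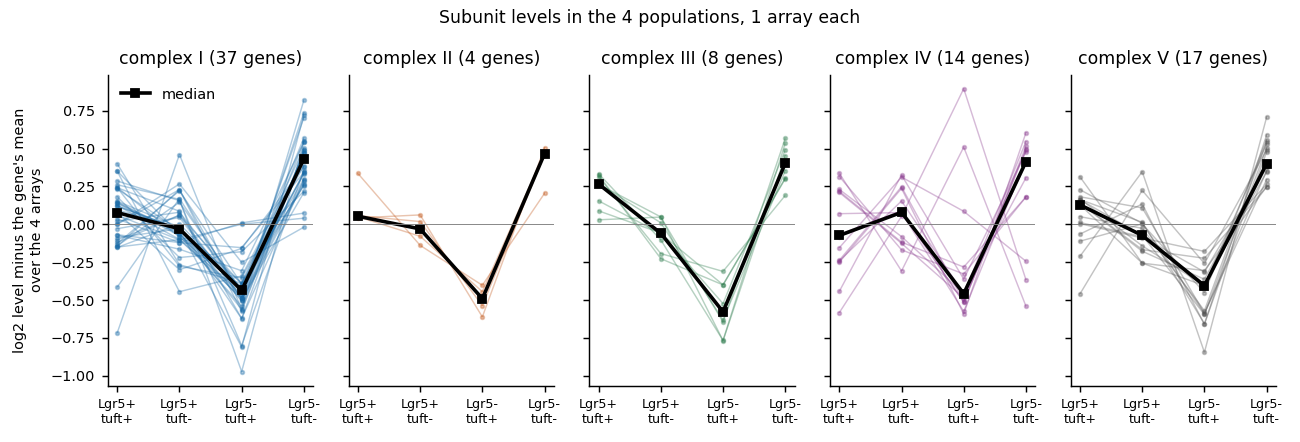
Level of each subunit gene in the 4 populations as log2 relative to the gene's own mean over the arrays (vertical axis), 1 line per gene and 1 panel per complex, with the median as black squares; the 80 genes above background on all 4 arrays are drawn. In all 5 complexes the median is lowest in Lgr5-tuft marker+ cells and highest in Lgr5-tuft marker- cells, at -0.45 and 0.43 over all 80 genes.

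The tuft marker difference within Lgr5+ minus that within Lgr5- had a median of 0.99 over the 80 members and of 0.13 over all 14055 genes. It was 1 or more in 38 members (20.1% of all genes) and -1 or less in 1 member, Cox6a2 (18.5% of all genes). The members are bright genes, with a median level at percentile 88.1 of the genes above background on all arrays. Among the 2415 genes at least as bright as the members' lower quartile, the median tuft marker difference was -0.12 within Lgr5-, and 11.2% were at least 2-fold lower. The same bright genes had a median of 0.10 for the tuft marker within Lgr5+, of 0.17 for Lgr5 within tuft marker+ and of -0.12 for Lgr5 within tuft marker-.

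The size of the 2-fold count rests on how arrays were scaled to each other. Within Lgr5-, the members at least 2-fold lower in tuft marker+ cells numbered 28 here, 51 after scaling to the array median (19.2% of all genes) and 5 in the authors' deposited values (6.52% of all genes). In the authors' values the members' share, 5 of 80, was thus below that of all genes. Of all genes 2-fold apart in that pair, 57.3% were higher in tuft marker+ cells here, 37.3% after scaling to the median and 79.3% in the authors' deposited values. For Lgr5 within tuft marker+ these shares were 43.9%, 66.7% and 28.0%. Measured against the median of the genes above background on all arrays, the members' median is free of such a constant and was -0.85 within Lgr5- under all of these scalings.

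**Figure D2:**
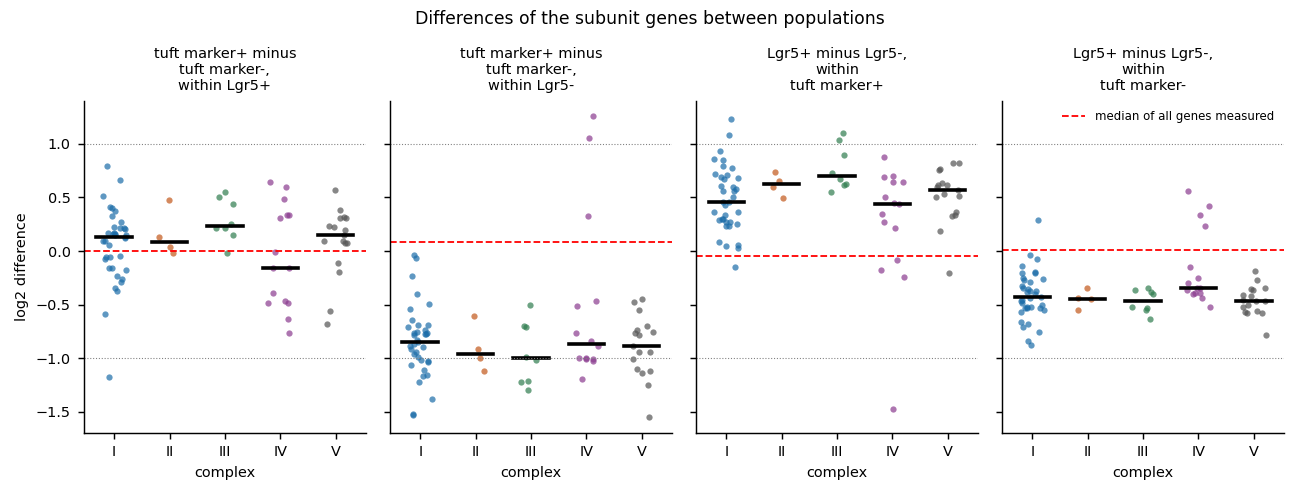
Log2 differences of the measured subunit genes (vertical axis) in the 4 pairs of populations, 1 point per gene, grouped by complex I to V, with a black bar at each complex's median; dotted lines mark 2-fold and the dashed red line the median of all genes measured. Within Lgr5- cells, tuft marker+ cells lay below tuft marker- cells in 77 of 80 genes, and the 3 points above 0 belong to complex IV.

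The promoters of members were read for motifs of factors known for this gene group, since so many members moved together. RefSeq promoter windows (GRCm38.p6, 250 bases before to 50 after the start) were found for 67 of the 83 members, in 72 windows. Motifs were looked for on both strands, and each motif was counted whether or not it overlapped another. The NRF1 motif, a palindrome of G, C, A and T that stands in capitals in the first promoter below, was in 6.94% of the member windows, against 1.33% of 21263 windows of coding genes and 0.971% of all 32851 windows. The ETS motif CCGGAAG, the core bound by GABP, was in 23.6%, against 11.6% of coding and 8.86% of all windows. The YY1 motif AAGATGGC was in 13.9%, against 3.05% and 2.75%. The GC box GGGCGG was in 40.3%, against 46.2% and 35.7%, and TATAAA was in 12.5%, against 12.6% and 13.6%.

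These matches are letters in a window and not sites of binding. The median tuft marker difference within Lgr5- was -1.03 in 5 members with the NRF1 motif and -0.89 in 60 without, -0.77 in 17 members with the ETS motif and -0.89 in 48 without, and -0.92 in 10 members with the YY1 motif and -0.88 in 55 without. It was -0.78 in 27 members with the GC box and -0.95 in 38 without. For TATAAA it was -0.60 in 6 members that had it and -0.91 in 59 without. None of these gaps was tested.

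The promoters of 4 members are shown, as the 250 bases before the start on the gene's strand, 5′ to 3′, with matches to the motifs in capitals. Ndufa11 is shown as the member with the highest Lgr5 difference within tuft marker+, Cox6a1 as a subunit with NRF1, ETS and GC box matches, and Atp5j, by 1 of its 2 windows, for its YY1 and ETS matches. Cox6b2, whose level went against the block, had a GC box match alone. Lacking the NRF1, ETS and YY1 motifs was not particular to it, since most members with a window lacked each of them.
Ndufa11, chr17:56717512-56717761, + strand: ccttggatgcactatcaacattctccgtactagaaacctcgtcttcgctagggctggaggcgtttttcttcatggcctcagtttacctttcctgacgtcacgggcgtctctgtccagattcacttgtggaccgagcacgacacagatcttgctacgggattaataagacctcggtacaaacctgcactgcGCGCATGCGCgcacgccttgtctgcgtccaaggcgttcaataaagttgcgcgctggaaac
Cox6a1, chr5:115348959-115349208, - strand: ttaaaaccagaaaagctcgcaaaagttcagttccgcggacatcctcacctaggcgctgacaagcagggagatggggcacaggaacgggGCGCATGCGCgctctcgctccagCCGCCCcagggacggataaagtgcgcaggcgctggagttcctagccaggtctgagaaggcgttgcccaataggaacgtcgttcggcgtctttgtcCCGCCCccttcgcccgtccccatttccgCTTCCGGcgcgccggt
Atp5j, chr16:84834977-84835226, - strand: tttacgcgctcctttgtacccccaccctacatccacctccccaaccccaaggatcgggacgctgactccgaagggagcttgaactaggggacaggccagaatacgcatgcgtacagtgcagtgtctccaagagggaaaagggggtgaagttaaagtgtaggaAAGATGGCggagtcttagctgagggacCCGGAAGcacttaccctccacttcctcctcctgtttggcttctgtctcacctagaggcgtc
Cox6b2, chr7:4753095-4753344, - strand: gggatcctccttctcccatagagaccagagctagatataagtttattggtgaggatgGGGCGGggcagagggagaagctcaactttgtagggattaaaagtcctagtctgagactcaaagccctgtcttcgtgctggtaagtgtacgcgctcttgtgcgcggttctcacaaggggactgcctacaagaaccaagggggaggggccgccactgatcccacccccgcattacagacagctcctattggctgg

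The 37 complex I genes were all lower in Lgr5-tuft marker+ than in Lgr5-tuft marker- cells, by a median of 0.85 on the log2 scale. Of the 37, 11 were at least 2-fold lower, against 12.3% of all genes. Within Lgr5+ the median tuft marker difference was 0.13. Ndufs1 encodes the large iron-sulfur subunit of the arm that oxidises NADH. Its level was 2.22 in Lgr5+tuft marker+ and 2.06 in Lgr5+tuft marker- cells, and 1.29 in Lgr5-tuft marker+ and 2.82 in Lgr5-tuft marker- cells. It was thus 2.89-fold lower with the tuft marker within Lgr5- (log2 difference -1.53), the farthest of complex I, and 1.11-fold higher within Lgr5+ (0.15), which is inside the scanner error.

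Over the 80 members, 1 was at least 2-fold lower with the tuft marker in both Lgr5 classes (1.44% of all genes). No member was 2-fold higher in both classes (4.83% of all genes), and none was 2-fold lower or higher in both Lgr5 pairs (0.594% and 0.74% of all genes).

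Ndufa11, an accessory subunit of the membrane arm, had the largest Lgr5 difference of complex I within tuft marker+ cells. Its level was -0.24 in Lgr5+tuft marker+ and -0.33 in Lgr5+tuft marker- cells, and -1.47 in Lgr5-tuft marker+ and 0.05 in Lgr5-tuft marker- cells, so that 1 population, Lgr5-tuft marker+, was set apart from the other three. The Lgr5 difference within tuft marker+ was 1.23 (2.35-fold, error 0.22) and the tuft marker difference within Lgr5- was -1.52 (2.86-fold lower, error 0.22). After another background correction (normexp, described with the processing) these were 0.75 and -0.80. Ndufa10 also passed 2-fold along the Lgr5 sort within tuft marker+, at 1.09, but its second probe gave 0.57 there.

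Ndufb4, an accessory subunit of the membrane arm, differed in direction between the Lgr5 classes. It stood at 1.33 in Lgr5+tuft marker+ and 0.53 in Lgr5+tuft marker- cells, and at 0.64 in Lgr5-tuft marker+ and 1.41 in Lgr5-tuft marker- cells. The tuft marker difference was 0.80 within Lgr5+, the highest of all members there, and -0.78 within Lgr5-, and the Lgr5 difference within tuft marker- was -0.88, the lowest of all members. RefSeq lists the related genes Ndufb4b and Ndufb4c, and a probe may not tell them apart. Ndufa6, another accessory subunit, had a like pattern, at 0.67 within Lgr5+ and -0.65 within Lgr5-.

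At the other end was Ndufa1, a small membrane subunit that assembly of complex I requires. Its level was 3.37 in Lgr5+tuft marker+ and 3.21 in Lgr5+tuft marker- cells, and 3.31 in Lgr5-tuft marker+ and 3.35 in Lgr5-tuft marker- cells. The range of 0.16 was the narrowest of the 80 members and below the scanner error. Ndufa3 was the 1 member of complex I above 0 along the Lgr5 sort within tuft marker-, at 0.29, but its second probe gave -0.17 there.

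Other core subunits of complex I included Ndufs3, Ndufs7, Ndufs8, Ndufv1 and Ndufv2. Ndufs7 and Ndufs8 carry iron-sulfur clusters on the way to ubiquinone, Ndufv1 binds NADH and flavin, and Ndufv2 carries an iron-sulfur cluster. The tuft marker differences of these core subunits within Lgr5- were close to each other, at -0.77 for Ndufs3, -0.77 for Ndufs7, -0.77 for Ndufs8, -1.06 for Ndufv1 and -0.75 for Ndufv2. Within Lgr5+ these 5 genes ran from -0.37 for Ndufv1 to 0.27 for Ndufs8.

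**Figure D3:**
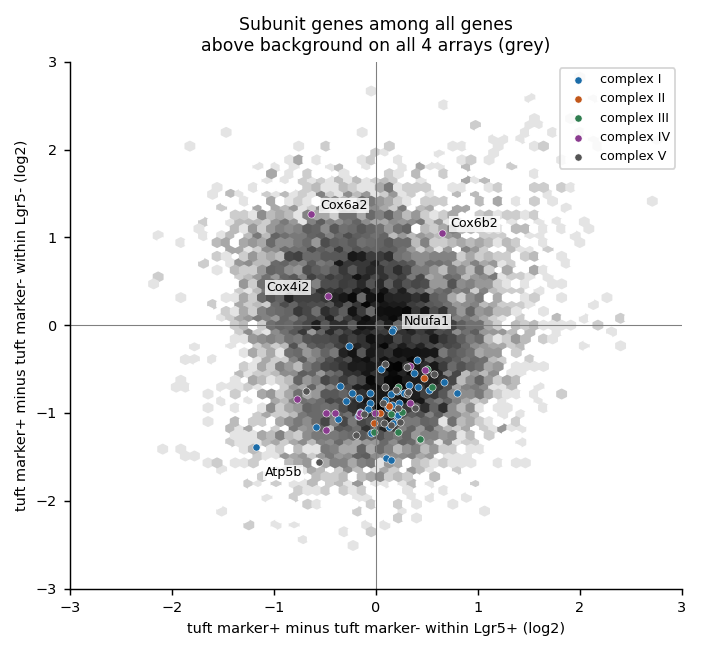
Tuft marker difference within Lgr5+ (horizontal, log2) against that within Lgr5- (vertical, log2) for the 80 subunit genes, coloured by complex, over all 14055 genes above background on all arrays (grey hexagons, darker for more genes on a log scale; genes beyond 3 either way are not drawn). Most subunit genes sit in a cloud around 0 on the horizontal axis and -0.89 on the vertical axis, with Cox6a2 and Cox6b2 above 1 on the vertical axis.

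Complex II, succinate dehydrogenase, had all 4 of its subunits on the array, and it is also an enzyme of the TCA cycle. All 4 were lower with the tuft marker within Lgr5-, with a median of -0.96, and all 4 were higher in Lgr5+tuft marker+ than in Lgr5-tuft marker+ cells, with a median of 0.62. Sdhd, a membrane anchor, had the widest range, with levels of 3.54 in Lgr5+tuft marker+ and 3.56 in Lgr5+tuft marker- cells, and of 2.89 in Lgr5-tuft marker+ and 4.0 in Lgr5-tuft marker- cells. Its tuft marker difference was -0.02 within Lgr5+ and -1.12 within Lgr5-. Sdhc, the other anchor, gave 0.13 and -0.92 in those pairs, and Sdha, the flavoprotein that oxidises succinate, gave 0.04 and -1.0. The second probe of Sdha gave -0.54 and -1.68.

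Sdhb, the iron-sulfur subunit, had the narrowest range of the complex, at 2.38 in Lgr5+tuft marker+ and 1.90 in Lgr5+tuft marker- cells, and 1.64 in Lgr5-tuft marker+ and 2.25 in Lgr5-tuft marker- cells. It was higher with the tuft marker within Lgr5+ (0.47) and lower within Lgr5- (-0.61). Its 2 probes disagreed on the size within Lgr5-, where the second gave -1.70, and the mean of both was -1.15. This was the largest disagreement among the members with several probes in that pair.

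In the values reported, complex III had the lowest median of the 5 complexes within Lgr5-, at -1.0. Of its 8 genes, 4 lay 2-fold or more below their level without the tuft marker, against 12.3% of all genes. Its median within Lgr5+ was the highest, at 0.24, with 7 of 8 members higher. The rank within Lgr5- depended on the setting. After quantile normalization complex III was the least lowered, at -0.57, and complex II the most, at -0.76. With the mean of all probes complex II was also lower, at -1.135 against -1.093 for complex III. Under the other settings run complex III stayed lowest. Uqcrc1 and Uqcrc2 encode the large core proteins that face the matrix, and both were among the 4 members that passed 2-fold along the Lgr5 sort within tuft marker+. Uqcrc1 stood at 1.81 in Lgr5+tuft marker+ and 1.37 in Lgr5+tuft marker- cells, and at 0.71 in Lgr5-tuft marker+ and 2.01 in Lgr5-tuft marker- cells. Its tuft marker difference was 0.44 within Lgr5+ and -1.30 within Lgr5-, the lowest of the complex, and its Lgr5 difference was 1.1 with the tuft marker and -0.64 without it.

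Uqcrc2 followed the same order, with 4.51 in Lgr5+tuft marker+ and 4.30 in Lgr5+tuft marker- cells, and 3.48 in Lgr5-tuft marker+ and 4.70 in Lgr5-tuft marker- cells. Uqcrfs1, the Rieske iron-sulfur protein that passes electrons on to cytochrome c1, had the highest tuft marker difference of the complex within Lgr5+, at 0.55, and was lower within Lgr5-, at -0.70. Its 4.38 in Lgr5+tuft marker+ and 4.35 in Lgr5-tuft marker- cells lay above its 3.83 in Lgr5+tuft marker- and 3.65 in Lgr5-tuft marker+ cells, so the high levels lay in the double positive and the double negative cells. The small subunit gene Uqcrb varied least, with a range of 0.62 and -0.50 within Lgr5-. Uqcr11 differed by -0.02 within Lgr5+ and -1.21 within Lgr5-, Uqcrq had the lowest Lgr5 difference of the complex within tuft marker+, at 0.55, and the hinge protein gene Uqcrh had -0.34 for Lgr5 within tuft marker-.

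Complex V, the ATP synthase, had all 17 members lower with the tuft marker within Lgr5-, with a median of -0.88. Of the 17, 6 were at least 2-fold lower, against 12.3% of all genes. Within Lgr5+ the median was 0.15, with 13 of 17 higher. The alpha and beta subunits, Atp5a1 and Atp5b, form the catalytic head. Atp5b had the widest range of all 80 members, 1.55, with 4.08 in Lgr5+tuft marker+ and 4.64 in Lgr5+tuft marker- cells, and 3.45 in Lgr5-tuft marker+ and 5.0 in Lgr5-tuft marker- cells. It was 2.94-fold lower with the tuft marker within Lgr5- (-1.55), and its other probes gave -1.36 and -1.58 there. Within Lgr5+ the 3 probes did not share a sign, at -0.56, 0.20 and -0.38.

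Atp5a1 stood at 6.36 in Lgr5+tuft marker+ and 6.21 in Lgr5+tuft marker- cells, and at 5.54 in Lgr5-tuft marker+ and 6.67 in Lgr5-tuft marker- cells. Its Lgr5 difference within tuft marker+, 0.82, was the highest of the complex. Its tuft marker difference was -1.13 within Lgr5-, where the second probe gave -1.70, and 0.15 within Lgr5+, where the second probe gave -0.67. The epsilon subunit of the central stalk, Atp5e, varied least, with a range of 0.44 and a tuft marker difference of -0.44 within Lgr5-. Atp5pb, a subunit of the peripheral stalk, had the lowest Lgr5 difference of the complex within tuft marker-, at -0.79, and RefSeq lists a pseudogene of it.

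The ring that turns in the membrane is built from 1 mature protein encoded by 3 genes, Atp5g1, Atp5g2 and Atp5g3, and these did not move alike. Atp5g2 was lower with the tuft marker in both classes, by 0.68 within Lgr5+ and 0.75 within Lgr5-, each beyond its scanner error of 0.07. It stood at 2.38 in Lgr5+tuft marker+ and 3.07 in Lgr5+tuft marker- cells, and at 2.58 in Lgr5-tuft marker+ and 3.34 in Lgr5-tuft marker- cells. Atp5g3 was higher within Lgr5+ (0.57, the highest of the complex) and lower within Lgr5- (-0.55), with 5.66 in Lgr5+tuft marker+ and 5.09 in Lgr5+tuft marker- cells, and 5.04 in Lgr5-tuft marker+ and 5.60 in Lgr5-tuft marker- cells. Atp5g1 differed by 0.07 within Lgr5+ and -0.88 within Lgr5-, and had the smallest difference of the complex for Lgr5 within tuft marker-, at -0.19. Its second probe gave -0.49, -1.68 and -0.44 in these pairs, so the sign within Lgr5+ depended on the probe.

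Complex IV, cytochrome c oxidase, was the least uniform of the complexes. Within Lgr5-, 11 of 14 measured members were lower with the tuft marker, with a median of -0.86, and 6 of them at least 2-fold (12.3% of all genes). The remaining 3, Cox6a2, Cox6b2 and Cox4i2, were the only members of any complex that were higher. Within Lgr5+ the median was -0.16, the one complex median below 0, with 9 of 15 members lower. Cox4i1, the widely used isoform of the largest nucleus-encoded subunit, had 4.27 in Lgr5+tuft marker+ and 4.76 in Lgr5+tuft marker- cells, and 3.93 in Lgr5-tuft marker+ and 5.12 in Lgr5-tuft marker- cells. Its tuft marker difference of -1.20 within Lgr5- was the lowest of the complex.

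Among complex IV subunits with a widely used and an alternative isoform, 3 alternative forms (Cox6a2, Cox6b2 and Cox4i2) lay higher in Lgr5-tuft marker+ than in Lgr5-tuft marker- cells while their partners lay lower, and Cox7a1 was lower as its partner was. Cox6a2, which is known from heart and skeletal muscle, stood at -2.32 in Lgr5+tuft marker+ and -1.68 in Lgr5+tuft marker- cells, and at -0.84 in Lgr5-tuft marker+ and -2.10 in Lgr5-tuft marker- cells. The Lgr5-tuft marker+ cells, lowest for most members, were highest here. Its tuft marker difference was 1.26 within Lgr5- (2.40-fold higher, error 0.23) and -0.64 within Lgr5+ (error 0.26), and its Lgr5 difference was -1.48 within tuft marker+. After normexp these were 0.61, -0.15 and -0.59. Its partner Cox6a1, the form of other tissues, differed by -1.03 within Lgr5- and -0.16 within Lgr5+.

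Cox6b2, in mammals an isoform of the testis, was higher in the tuft marker+ cells of each class. It had 0.40 in Lgr5+tuft marker+ and -0.25 in Lgr5+tuft marker- cells, and 0.57 in Lgr5-tuft marker+ and -0.48 in Lgr5-tuft marker- cells. The differences were 0.65 within Lgr5+, the highest of the complex, and 1.05 within Lgr5- (2.07-fold). Cox6b1, the widely used form, differed by -0.40 within Lgr5+ and -1.0 within Lgr5-.

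Cox4i2, an isoform known from lung and induced by low oxygen, was lower with the tuft marker within Lgr5+ (-0.47) and higher within Lgr5- (0.33). It stood at 3.23 in Lgr5+tuft marker+ and 3.70 in Lgr5+tuft marker- cells, and at 3.47 in Lgr5-tuft marker+ and 3.14 in Lgr5-tuft marker- cells, and its Lgr5 difference within tuft marker-, 0.56, was the highest of all members. Cox7a1, the form of heart and skeletal muscle, was lower with the tuft marker in both classes, at -0.77 within Lgr5+, the lowest of the complex, and -0.84 within Lgr5-. Its partner Cox7a2 differed by -0.16 within Lgr5+ and -1.0 within Lgr5-, and Cox7a2l, which joins complexes III and IV into larger assemblies, by 0.31 and -0.76.

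Ndufa4l2 and Ndufa4 were grouped with complex I by their symbols, although the NDUFA4 protein has since been found in complex IV. Ndufa4l2, which low oxygen induces, varied little, with -2.62 in Lgr5+tuft marker+ and -2.78 in Lgr5+tuft marker- cells, and -2.65 in Lgr5-tuft marker+ and -2.59 in Lgr5-tuft marker- cells. Its tuft marker differences of 0.16 and -0.06 were inside errors of 0.35 and 0.32. Ndufa4 differed by -0.16 within Lgr5+ and -0.83 within Lgr5-.

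Cox8b, a form of heart and skeletal muscle, was dim, at -2.78 in Lgr5+tuft marker+ and -3.38 in Lgr5+tuft marker- cells, and not well above background in either Lgr5- population. Its Lgr5 difference within tuft marker+ was at least 0.88, with an error of 0.74, and its tuft marker difference within Lgr5+ was 0.60 with an error of 0.43. Cox8a, its widely used partner, gave 0.48 for the tuft marker within Lgr5+ and -0.51 within Lgr5-. Cox7b, whose partner Cox7b2 was not above background, gave -0.01 and -1.0. Of the subunits with 1 form, Cox6c had the narrowest range of the complex, 0.50, and Cox5a the lowest Lgr5 difference within tuft marker-, at -0.53. Markers of muscle (Acta1, Myh11, Des, Tnnc2 and Ckm) were dim in all populations, with summed levels of 2.01 in Lgr5+tuft marker+ and 1.79 in Lgr5+tuft marker- cells, and 2.0 in Lgr5-tuft marker+ and 1.72 in Lgr5-tuft marker- cells, in units of the 75th percentile. Des was not above background in 3 populations and Ckm not in 3.

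**Figure D4:**
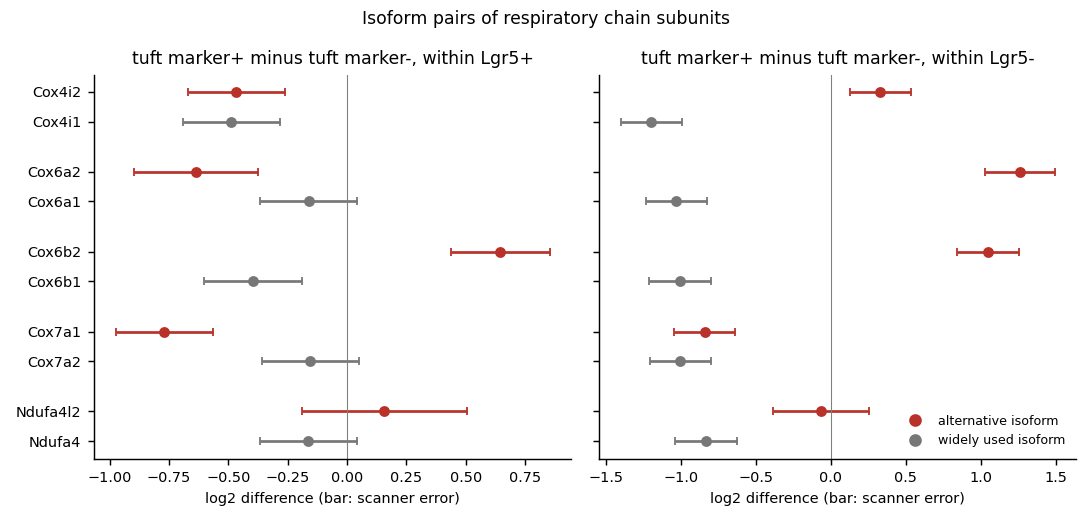
Tuft marker difference (horizontal, log2) within Lgr5+ (left) and within Lgr5- (right) for 5 pairs of alternative (red) and widely used (grey) isoforms; bars are the scanner error of the difference and cover spot reading only. Within Lgr5- the widely used forms lie between -1.20 and -0.83, while Cox4i2, Cox6a2 and Cox6b2 lie above 0, Ndufa4l2 near 0 and Cox7a1 at -0.84.

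Whether 1 probe stands for its gene could be seen in the 17 members with at least 2 probes above background. All 17 gave the same sign with every probe for the tuft marker within Lgr5- and for Lgr5 within tuft marker+, and 15 did so for Lgr5 within tuft marker-. For the tuft marker within Lgr5+, where differences were small, 7 of 17 did. RefSeq lists near-identical copies or pseudogenes for Atp5k, Atp5l, Atp5c1, Uqcrh, Cox7c, Cox6c, Ndufa11, Ndufa12, Ndufs5 and Ndufs6 as well, so their values may include signal of a copy. Between the 2 tuft marker pairs, which share no array, the members' differences gave Pearson's r as 0.15 and Spearman's rho as 0.36 over 80 genes, beside 0.23 and 0.0001 over 14055 genes. These are correlations across genes, which are not independent replicates.

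The listed genes of the catalytic and metal-carrying core did not separate from the members outside that list. The 12 core genes had medians of 0.09 for the tuft marker within Lgr5+ and -0.89 within Lgr5-, and of 0.61 and -0.36 for Lgr5 within the tuft marker+ and tuft marker- classes. The members outside the core gave 0.15, -0.89, 0.53 and -0.42 in the same pairs. At least 2-fold lower with the tuft marker within Lgr5- were 5 of 12 core genes and 23 of 68 others, against 12.3% of all genes.

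Genes that build or feed the chain went the same way along the tuft marker sort. Assembly factors, which put the complexes together and are not part of them, had a median of 0.04 for the tuft marker within Lgr5+ and -0.82 within Lgr5-. In the second pair 15 of 47 were at least 2-fold lower, against 12.3% of all genes. There 1, Bcs1l, was at least 2-fold higher (1.03), against 16.6% of all genes. Coa6 (-2.55, the smallest size it can have, since Lgr5-tuft marker+ cells were not above background) and Uqcc1 (-2.26), assembly factors of complexes IV and III, were farthest below 0, and Ttc19, of complex III, was highest within Lgr5+, at 1.94. The 9 chain genes outside the symbols, among them those for cytochrome c1 (Cyc1, -1.45 within Lgr5-) and cytochrome c (Cycs, -0.92), gave a median of 0.13 within Lgr5+ and one of -0.92 within Lgr5-. Ndufab1, the acyl carrier protein that is also a complex I subunit, was not above background in Lgr5+tuft marker+ cells and lower there by at least 2.32 than in Lgr5+tuft marker- cells.

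The 17 TCA cycle genes, whose enzymes supply the NADH, had medians of 0.10 for the tuft marker within Lgr5+ and -0.97 within Lgr5-. In the second, 8 of 17 were at least 2-fold lower, against 12.3% of all genes. Suclg2, a subunit of succinyl-CoA ligase, was farthest, with 0.85 in Lgr5+tuft marker+ and 0.92 in Lgr5+tuft marker- cells, and -0.86 in Lgr5-tuft marker+ and 1.48 in Lgr5-tuft marker- cells. Cs, citrate synthase, differed by 0.68 within Lgr5+ and -1.35 within Lgr5-, with Lgr5 differences of 0.99 with the tuft marker and -1.04 without it. Mitochondrial ribosomal proteins, which translate the mitochondrial messages, gave -0.03 within Lgr5+ and -0.99 within Lgr5-. In the second, 38 of 78 were at least 2-fold lower (12.3% of all genes) and none 2-fold higher (16.6%). Mrpl38 and Mrpl30 were lowest there, at -2.09 and -2.0.

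Regulators of mitochondrial biogenesis were less uniform, with medians of 0.17 for the tuft marker within Lgr5+ and -0.41 within Lgr5-. In the second, 5 of 15 were at least 2-fold lower (12.3% of all genes) and 1 was at least 2-fold higher (16.6%). Nrf1, the factor behind the motif above, was the one that was at least 2-fold higher. It stood at 2.19 in Lgr5+tuft marker+ and 2.13 in Lgr5+tuft marker- cells, and at 3.37 in Lgr5-tuft marker+ and 2.07 in Lgr5-tuft marker- cells. Its highest level thus lay in the population where most subunit genes were lowest, with a tuft marker difference of 1.30 within Lgr5-. Tfam, which packs and transcribes mitochondrial DNA, went with the subunits, at -1.70 within Lgr5- and -0.35 within Lgr5+, and Ppargc1a, the coactivator PGC-1alpha, differed by -1.12 and -0.05.

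**Figure D5:**
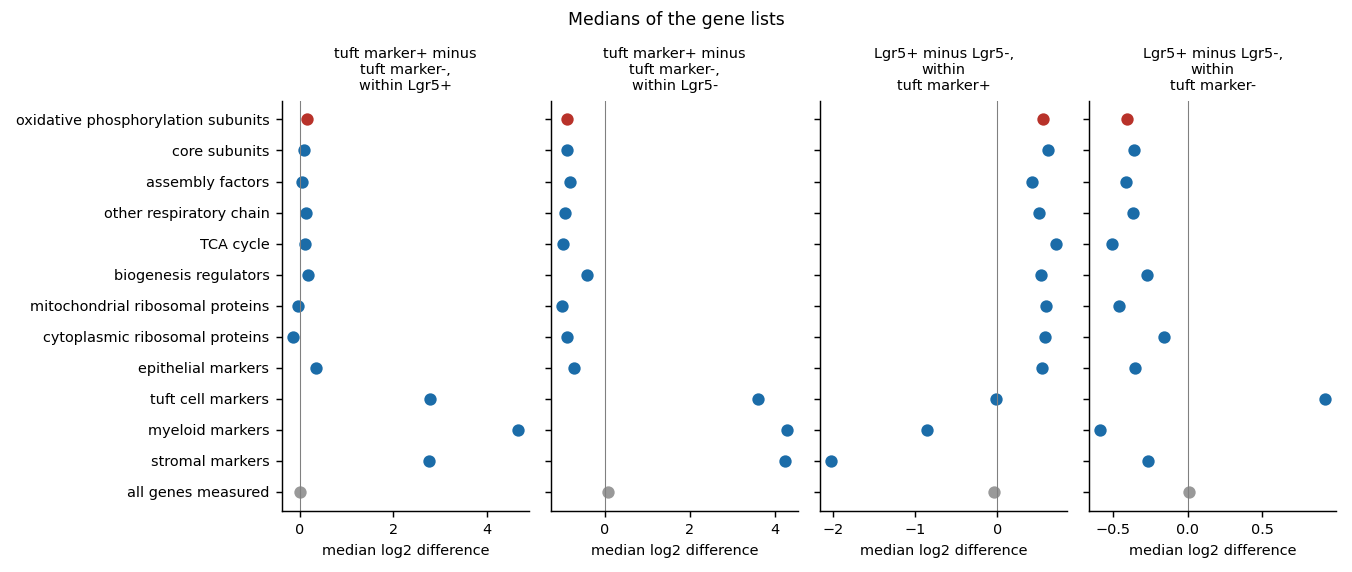
Median log2 difference (horizontal) of the subunit genes (red), of related gene lists and marker lists (blue) and of all genes measured (grey) in the 4 pairs of populations, each panel with its own scale and a line at 0. Within Lgr5- the subunit, TCA cycle and ribosomal protein lists lie between -0.99 and -0.88 for the tuft marker, while tuft, myeloid and stromal markers lie above 3.

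A like pattern was found outside mitochondria. Cytoplasmic ribosomal protein genes, with 80 measured, had medians of -0.14 for the tuft marker within Lgr5+ and -0.88 within Lgr5-. In the second, 20 of 80 were at least 2-fold lower, against 12.3% of all genes. Their medians for Lgr5 within the tuft marker+ and tuft marker- classes were 0.58 and -0.16. The 10 epithelial markers, all above background in every population, had medians of 0.35 and -0.73 for the tuft marker within Lgr5+ and Lgr5-, and of 0.55 and -0.35 for Lgr5 within tuft marker+ and tuft marker-. Their summed levels, in units of the 75th percentile, were 265 in Lgr5+tuft marker+ and 157 in Lgr5+tuft marker- cells, and 215 in Lgr5-tuft marker+ and 204 in Lgr5-tuft marker- cells. Among them Krt18 was higher in both tuft marker+ populations (1.65 within Lgr5+ and 1.58 within Lgr5-), whereas Krt19 was lower within Lgr5- (-1.88).

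Markers of other cells were not spread evenly over the populations. Of 13 myeloid markers all were above background in both tuft marker+ populations and in Lgr5-tuft marker- cells, and Ptprc, Adgre1, C1qa and C1qc were not in Lgr5+tuft marker- cells. Their summed levels were 162 in Lgr5+tuft marker+ and 55.3 in Lgr5+tuft marker- cells, and 213 in Lgr5-tuft marker+ and 68.0 in Lgr5-tuft marker- cells. With the tuft marker, 10 of 13 were at least 2-fold higher within Lgr5+ (median 4.67) and 11 of 13 within Lgr5- (median 4.28). The shares of all genes were 10.5% and 16.6%. Lyz2 and C1qb within Lgr5+, and Lyz2 and Cd74 within Lgr5-, were the lowest and did not reach 2-fold. Within Lgr5+ the differences of Ptprc, Adgre1, C1qa and C1qc are lower limits. The 10 stromal markers summed to 41.4 in Lgr5+tuft marker+ and 31.9 in Lgr5+tuft marker- cells, and to 65.0 in Lgr5-tuft marker+ and 41.5 in Lgr5-tuft marker- cells. Of these, 9 of 10 were at least 2-fold higher with the tuft marker within Lgr5- (median 4.23, 16.6% of all genes). Within Lgr5+ 6 of 7 measured were (median 2.76, 10.5% of all genes). In Lgr5+tuft marker+ cells 7 of 10 were at least 2-fold lower than in Lgr5-tuft marker+ cells (median -2.02, 11.5% of all genes). Acta2, the exception in both tuft marker pairs, differed by -0.80 within Lgr5- and -0.07 within Lgr5+. Lum, Pdgfra and Pdgfrb were above background in Lgr5-tuft marker+ cells alone, the population in which most subunit genes were lowest.

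Of the 6 T and NK cell markers with a probe, 6 were above background in Lgr5-tuft marker+ cells and 3 or 4 in the other populations, with summed levels of 3.39 in Lgr5+tuft marker+ and 5.39 in Lgr5+tuft marker- cells, and 12.3 in Lgr5-tuft marker+ and 5.84 in Lgr5-tuft marker- cells. Enterocyte markers, of which Lct was above background nowhere and the other 7 everywhere, summed to 160.3 in Lgr5+tuft marker+ and 44.3 in Lgr5+tuft marker- cells, and to 105 in Lgr5-tuft marker+ and 114 in Lgr5-tuft marker- cells. The 11 tuft markers with a probe summed to 71.8 in Lgr5+tuft marker+ and 7.08 in Lgr5+tuft marker- cells, and to 53.6 in Lgr5-tuft marker+ and 2.96 in Lgr5-tuft marker- cells, and Ptgs1, Hpgds and Alox5ap among them are also expressed by myeloid cells. The part of these cells in the subunit differences was not tested. In RNA from a sorted population, fewer cells of a type and less of an RNA per cell cannot be told apart.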

How the data were processed

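Per the file headers, spots were read with Agilent Feature Extraction 12.0.3.1, while the submitters' processing notes name 11.5.1.1. The deposited intensity of each spot is the software's processed signal, already background-subtracted, with no scaling between arrays, and the deposited files also hold its error and flags of 0 or 1. The authors' deposited table of processed intensity values was found to be the same signal times 1 constant per array (10.9 in Lgr5+tuft marker+ and 7.82 in Lgr5+tuft marker- cells, 11.9 in Lgr5-tuft marker+ and 9.08 in Lgr5-tuft marker- cells), on a linear scale and not centred, with column medians of 279, 286, 365 and 253 in that order. All 4 arrays lay on 1 slide and had 1 scan.

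Control spots and 91 to 122 outlier spots per array were left out, no spot was saturated, and copies of a probe were averaged. Levels are log2 intensity minus log2 of the 75th percentile of that array. Of 56605 probes, 32994 were named through their accession and the RefSeq table of GRCm38.p6, without versions. The array was annotated on an older build, so no probe coordinates are given. The coordinates of the promoters shown are those of GRCm38.p6. The probe with the highest mean intensity stood for a gene. A gene entered a pair if above background on at least 1 of its 2 arrays, values below the lowest signal above background (levels of -3.41, -3.86, -3.66 and -3.71 in the order above) were raised to it, and differences against such values are written "at least".

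With 1 array per population nothing was tested. Named genes are, per pair and complex, the highest and lowest member, members 2-fold apart in both pairs of a sort, isoforms and core subunits, members above background nowhere, and the widest and narrowest ranges; from other lists, the 2 highest and lowest per pair, of which some are given. A gene of the rule is not reported here. Uqcrc2, Ndufa10, Ndufa6, Cycs, Cs, Ppargc1a and the motifs were picked out after values were seen. The members and lists were chosen with earlier results of these data known. Alternatives were other scalings, quantile normalization, the authors' values, detection flag, floor, probes and fold threshold. Normexp (limma 3.58.1, R 4.3.3, offset 50) was run on median signals, a choice made after seeing the data, as the planned mean signals were not used here. The scripts ran in Python 3.11.15 with pandas 2.3.3 and were checked on simulated data.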

Additional observations from a re-analysis of the deposited data

Results flagged for a closer look

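Several medians went one way in one class of cells and the opposite way in the other. Some single genes did so too, each by more than 3 times its scanner error both ways. The medians were not held to that multiple. None of these contrasts between classes was tested, since each population had 1 array. Along the tuft marker sort, opposite directions were flagged for the complex III median, at 0.2368 within Lgr5+ and -1 within Lgr5-. They were also flagged for the single genes Ndufa6, at 0.6657 and -0.6453, and Ndufb4, at 0.7959 and -0.7758. Medians not flagged also differed in sign there, at 0.15 and -0.89 for all members and 0.13 and -0.85 for complex I. They were 0.08 and -0.96 for complex II and 0.15 and -0.88 for complex V. The complex IV median was below 0 in both classes.

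Along the Lgr5 sort, opposite directions were flagged for the median of all members, at 0.5575 within tuft marker+ and -0.405 within tuft marker-. The complexes gave 0.4576 and -0.4248 for complex I, 0.6241 and -0.4434 for complex II, 0.7006 and -0.462 for complex III, 0.4348 and -0.3487 for complex IV, and 0.5705 and -0.4644 for complex V, again within tuft marker+ and within tuft marker-. The single genes flagged were Ndufb4, at 0.6923 and -0.8795, Ndufs1, at 0.9304 and -0.7528, and Uqcrc1, at 1.101 and -0.6377. The Lgr5 and tuft marker contrasts use the same 4 arrays.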

How the results depend on the processing

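The members' medians kept their direction in all 4 pairs under every setting run. For the tuft marker within Lgr5+ the median of 0.146 was 0.246 after scaling to the array median and 0.043 after normexp, where its distance from the all-gene median was -0.018, against 0.129 in the values reported. For the tuft marker within Lgr5- the median was -0.5911 in the authors' deposited values, -0.6327 after quantile normalization and -1.12 after scaling to the array median, which also moved Lgr5 within tuft marker+ to 0.7787. Scaling to the median shifted the median of all genes by 0.10, -0.23, 0.22 and -0.11 (tuft marker within Lgr5+ and Lgr5-, Lgr5 within tuft marker+ and tuft marker-), and the authors' values by 0.06, 0.29, -0.17 and 0.07. The members' distance from the all-gene median within Lgr5- was -0.85 under every per-array scaling, -0.56 after quantile normalization and -0.77 after normexp. The complex I median for the tuft marker within Lgr5+ turned to -0.0214 after normexp; the cause was not tested. Counts of members moved more. For the tuft marker within Lgr5-, the 28 lower members became 65 at 1.5-fold and 51 after scaling to the median (19.2% of all genes). They became 15 with the percentile taken over probes detected on all arrays (9.91% of all genes). After quantile normalization 8 of 80 were lower (13.6% of all genes), and in the authors' values 5 of 80 (6.52%). After quantile normalization and in the authors' values the members' share was thus below that of all genes. The 2 higher became 1 after scaling to the median (11.5% of all genes) and 0 after normexp (5.31%). Within Lgr5+, 1 lower became 4 at 1.5-fold, 2 with the mean of probes (7.25% of all genes) and 0 after normexp (1.43%). The 0 higher became 4 at 1.5-fold. For Lgr5 within tuft marker+, 4 higher became 37 at 1.5-fold and 12 after scaling to the median (14.8% of all genes). The 4 became 1 both in the authors' values (6.09% of all genes) and after normexp (2.17%). In the same pair, 1 lower became 0 after normexp (2.21% of all genes). For Lgr5 within tuft marker-, 0 lower became 8 at 1.5-fold. The shares of all genes at 1.5-fold are not given here, so the counts at 1.5-fold cannot be set against a background. The sign held under every setting in 61 of 81 and 77 of 80 members for the tuft marker within Lgr5+ and Lgr5-, and in 72 of 81 and 78 of 81 for Lgr5 within tuft marker+ and tuft marker-. Normexp on the planned mean signals was not run. No paired analysis was possible because each population had 1 array. Signal over background limits Cox8b, Cox7b2 and Cox8c.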
